A study of Mus musculus with 10 samples.

Results

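Interferon-stimulated genes were followed across 10 RNA-seq libraries of mouse CD8+ T cells. A list of 47 symbols was matched to the gene tables, each symbol standing for whichever of its transcripts gathered the most reads in total, and all 47 were found among 23992 symbols. By the textbook division of the family, 32 are type I type genes, 13 are interferon gamma type genes, and Irf1 and Ly6a, which both kinds of interferon induce, were kept apart. All 47 passed the filter on low counts that left 14357 genes for testing, and no value entered the rule by which the symbols were listed, although earlier results of these data were known when the list was drawn up.

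The cells came from spleens of C57BL/6N mice and were activated for 48 h with 2 µg/ml anti-CD3 and 2 µg/ml anti-CD28, antibodies that stand in for antigen and costimulation. They were then pooled, washed and cultured for another 48 h in one of 5 ways, with 2 libraries each: without cytokine, with human IL-2 at 100 IU/ml, with mouse IL-21 at 100 ng/ml, or with either cytokine plus LDHi. LDHi is NCI-737, an inhibitor of lactate dehydrogenase, the enzyme that interconverts pyruvate and lactate; it was present at 1 µM from activation onward and was replenished. All groups thus share the same antibodies and times, but only the groups with LDHi were activated in its presence. No group was cultured with LDHi and without cytokine after activation. Effects of LDHi during activation and during the culture with cytokine cannot be told apart. The labels do not say whether libraries of a group came from separate mice or cultures, so a p-value here reflects how far these libraries differ, and that spread may be technical.

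Interferons reach T cells through separate receptors. Type I interferons (alpha and beta) act through Ifnar1 and Ifnar2 and assemble a complex, with Stat2 and Irf9 among its parts, that binds the interferon-stimulated response element (ISRE). Interferon gamma, which CD8+ T cells themselves secrete, acts through Ifngr1 and Ifngr2 and leads to binding at the gamma-activated site (GAS). The first kind is best known for inducing antiviral proteins (the Ifit, Oas and Mx families), the second for inducing guanylate binding proteins (Gbp), immunity-related GTPases (Irg) and the genes that cut and load peptides for MHC class I. IRF proteins also bind the ISRE, and many targets answer to both interferons, so the division is one of emphasis.

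Promoters are shown first because the classes are named for pathways that act through these sites. RefSeq (GRCm38.p6, the assembly of mm10) gave 39 promoters of 300 bases for 34 members, each from 250 bases before to 50 bases after a transcription start, and 13 members had none in the table used. On both strands, the ISRE was searched as GAAA, any 2 bases and GAAA again, and the GAS as TTCNNNGAA, and matches may overlap by a few letters. The following stretches reach 20 bases past the outermost match, run 5′ to 3′ on the gene's strand, and carry the matches in capitals.
Igtp: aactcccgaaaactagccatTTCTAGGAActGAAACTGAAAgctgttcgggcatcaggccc
Irgm2: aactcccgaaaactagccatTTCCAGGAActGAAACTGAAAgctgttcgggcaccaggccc
Irgm1: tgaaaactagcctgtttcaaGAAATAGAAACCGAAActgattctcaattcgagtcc
Gbp2: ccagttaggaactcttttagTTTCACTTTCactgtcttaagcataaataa
Gbp3: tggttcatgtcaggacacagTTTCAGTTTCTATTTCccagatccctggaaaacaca
Gbp7: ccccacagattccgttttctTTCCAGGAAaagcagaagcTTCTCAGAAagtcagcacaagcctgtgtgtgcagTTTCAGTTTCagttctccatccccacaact
Isg15: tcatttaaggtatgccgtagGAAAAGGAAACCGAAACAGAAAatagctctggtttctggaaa
Ifit1: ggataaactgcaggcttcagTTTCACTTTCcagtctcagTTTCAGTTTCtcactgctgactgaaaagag
Ifit3: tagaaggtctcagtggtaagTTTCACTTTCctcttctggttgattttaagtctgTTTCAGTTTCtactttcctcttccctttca
Oas3: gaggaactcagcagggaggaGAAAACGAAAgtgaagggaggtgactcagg
Rsad2: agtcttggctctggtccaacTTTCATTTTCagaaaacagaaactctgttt
Irf1: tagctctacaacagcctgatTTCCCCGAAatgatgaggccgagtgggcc
The first pair, from neighbouring GTPase genes, has the GAS just ahead of the ISRE at the same spacing, at -45 and -34 from the start in Igtp and at -75 and -64 in Irgm2. Gbp2, Gbp3 and Irgm1 hold ISRE letters only, Gbp7 holds both, Isg15, Ifit1, Ifit3, Oas3 and Rsad2 hold ISRE letters only, and Irf1 holds GAS letters only. The stretches lie at chr11:58199491-58199551 (+ strand) for Igtp, chr11:58214882-58214942 (+ strand) for Irgm2, chr11:48871415-48871470 (- strand) for Irgm1, chr3:142620584-142620633 (+ strand) for Gbp2, chr3:142559979-142560034 (+ strand) for Gbp3, chr3:142530210-142530312 (+ strand) for Gbp7, chr4:156200855-156200916 (- strand) for Isg15, chr19:34640765-34640833 (+ strand) for Ifit1, chr19:34583353-34583436 (+ strand) for Ifit3, chr5:120777705-120777754 (- strand) for Oas3, chr12:26456543-26456592 (- strand) for Rsad2, and chr11:53769904-53769952 (+ strand) for Irf1.

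Of the 39 promoters, 20 (51.3%) held an ISRE match, against 3.44% of all 32851 promoters of this length in the table. A GAS match was present in 11 (28.2%), against 8.3% of all promoters, and both motifs in 7 (17.9%), against 0.454%. The ISRE was present in both classes, in 13 of 26 type I type promoters (50%) and 7 of 11 interferon gamma type promoters (63.6%). GAS letters were present in 5 of 26 type I type promoters (19.2%) and 5 of 11 of the interferon gamma type (45.5%), and both motifs together in 3 and 4 promoters. Promoters of 1 gene share sequence, those of Tap1 and Psmb9 are largely the same bases on opposite strands, and the Igtp and Irgm2 stretches are nearly identical. These promoters are not independent, the numbers are small, and a match is a description and not a binding site. In the map of motif positions, most matches lie upstream of the start, as do 250 of the 300 bases searched, so this says nothing about preferred positions. The promoters of Tap1, Psmb9, Irf7, Irf9 and Cmpk2 are among those with no match in this window.

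**Figure D1:**
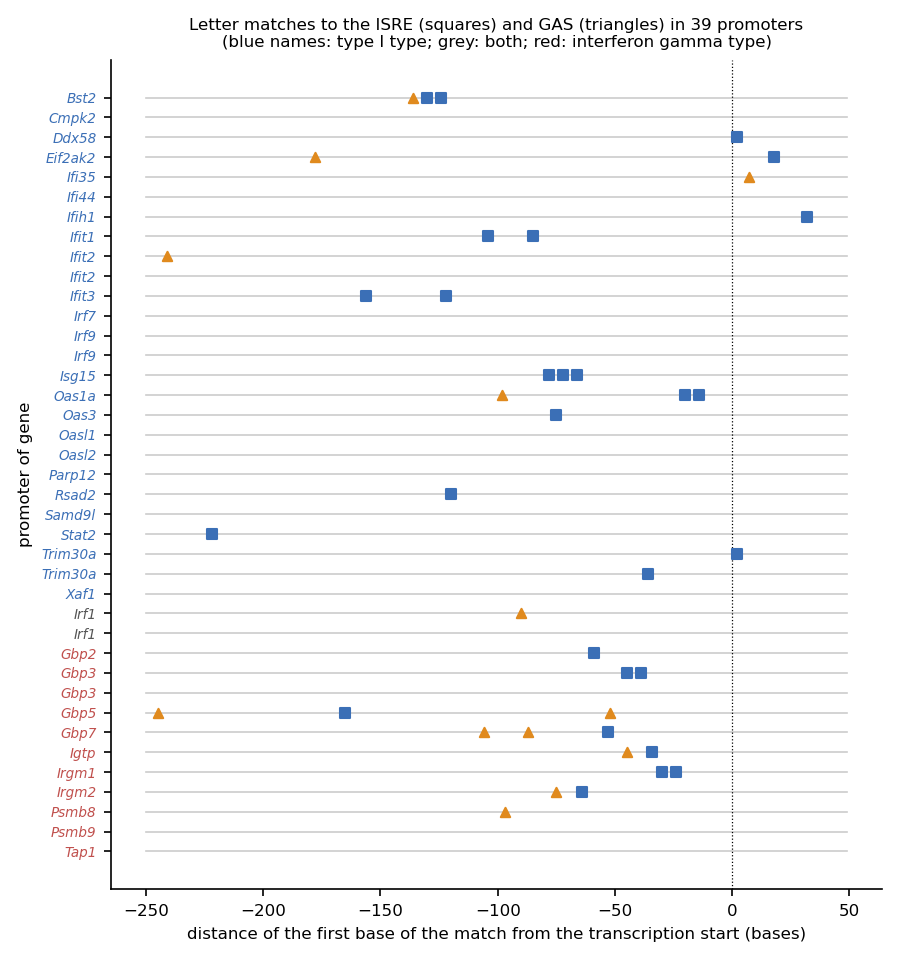
Distance from the transcription start, in bases, of the first base of each ISRE match (blue squares) and GAS match (orange triangles) in the 39 promoters of 34 members, 1 grey line per promoter. ISRE matches appear in 20 promoters and GAS matches in 11, and Igtp and Irgm2 show the 2 motifs in the same order and spacing.

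The authors' library totals ran from 45138204 to 62848913 reads. Reads on the transcripts kept for the symbols ran from 27137191 in IL-21 replicate 2 to 46656183 in IL-2 + LDHi replicate 1. They made up 59.9% of the total in IL-21 replicate 2 and 69.1% to 79.4% in the other libraries. Levels in RPKM are scaled to the totals, and the part of this lower share in the values of IL-21 replicate 2 was not tested. The 6 CD8 T cell markers (Cd8a, Cd8b1, the Cd3 chains and Cd247) summed to between 1211 and 1708 RPKM (reads per kilobase of transcript and scaled to library size) in every library, while Cd4 stayed at or below 1.05. Markers of other cells moved with the groups. The 10 macrophage and monocyte markers summed to 159 to 217 RPKM without cytokine and 57.7 to 63.7 in IL-21, but to 12.3 to 15.1 in IL-2, 15.9 to 22.7 in IL-2 + LDHi and 7.91 to 10.7 in IL-21 + LDHi. The 6 granulocyte, basophil and mast cell markers summed to 202 to 437 without cytokine, 64.4 to 89.7 in IL-21 and at most 2.64 elsewhere. The 7 dendritic cell markers summed to 78.2 to 89.1 without cytokine, 28.4 to 43.6 in IL-21 and at most 25.4 elsewhere, and the 4 B cell markers to between 4.89 and 19.3 over all libraries. C1qb was at 0 in both IL-2 libraries, C1qa in IL-2 replicate 2, Cd14 in IL-21 + LDHi replicate 1, S100a8 in 5 of the 6 libraries of the other three groups, and S100a9 in 4 of these 6. Both NK cell markers together reached 8.09 to 8.87 in IL-2 + LDHi and at most 1.02 elsewhere. The comparisons with the libraries without cytokine, and those with IL-21 alone, therefore set groups of unequal marker sums against each other, and the part of other cells in those results was not tested. IL-2 + LDHi against IL-2, and IL-21 + LDHi against IL-2 + LDHi, compare groups with at most 22.7 RPKM of macrophage and monocyte markers and 2.64 of the granulocyte, basophil and mast cell list. The 2 IL-21 libraries also differed most from each other, with a standard deviation of the log2 ratio between replicates of 0.535 over the members, against 0.12 to 0.34 in the other groups. Ranges over fits that leave out 1 library at a time are given below.

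The interferon gamma type genes were the more abundant class. All 13 had a mean of at least 5 RPKM in every group, and the median of their group means was 96.1 RPKM without cytokine, 67.8 in IL-2, 67.5 in IL-2 + LDHi, 63.0 in IL-21 and 30.1 in IL-21 + LDHi. Of the 32 type I type genes, 14 reached 5 RPKM in every group and 23 in at least 1, with medians between 4.57 in IL-2 and 8.20 in IL-21, and the means of Mx2 and Ifi44 stayed below 1 in every group. Reads in a library ran from 4 for Ifi44 to 31478 for Ly6a, and Ifi44, Mx2 and Rsad2 were the members with the fewest.

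The classes also had their lowest levels in different groups. Interferon gamma type genes were lowest in IL-21 + LDHi for 12 of 13, the exception being Gbp2, whose mean was lowest in IL-2 + LDHi. Type I type genes were lowest in IL-2 for 16 of 32, in IL-2 + LDHi for 8 and in IL-21 + LDHi for 7. Without cytokine, 14 of them were highest. Over all genes tested, 30.1% were lowest in IL-2, 6.97% in IL-2 + LDHi and 31.4% in IL-21 + LDHi, and 21.5% were highest without cytokine. These are orders of means of 2 libraries. In bulk libraries, fewer cells of a type and less RNA per cell cannot be told apart.

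**Figure D2:**
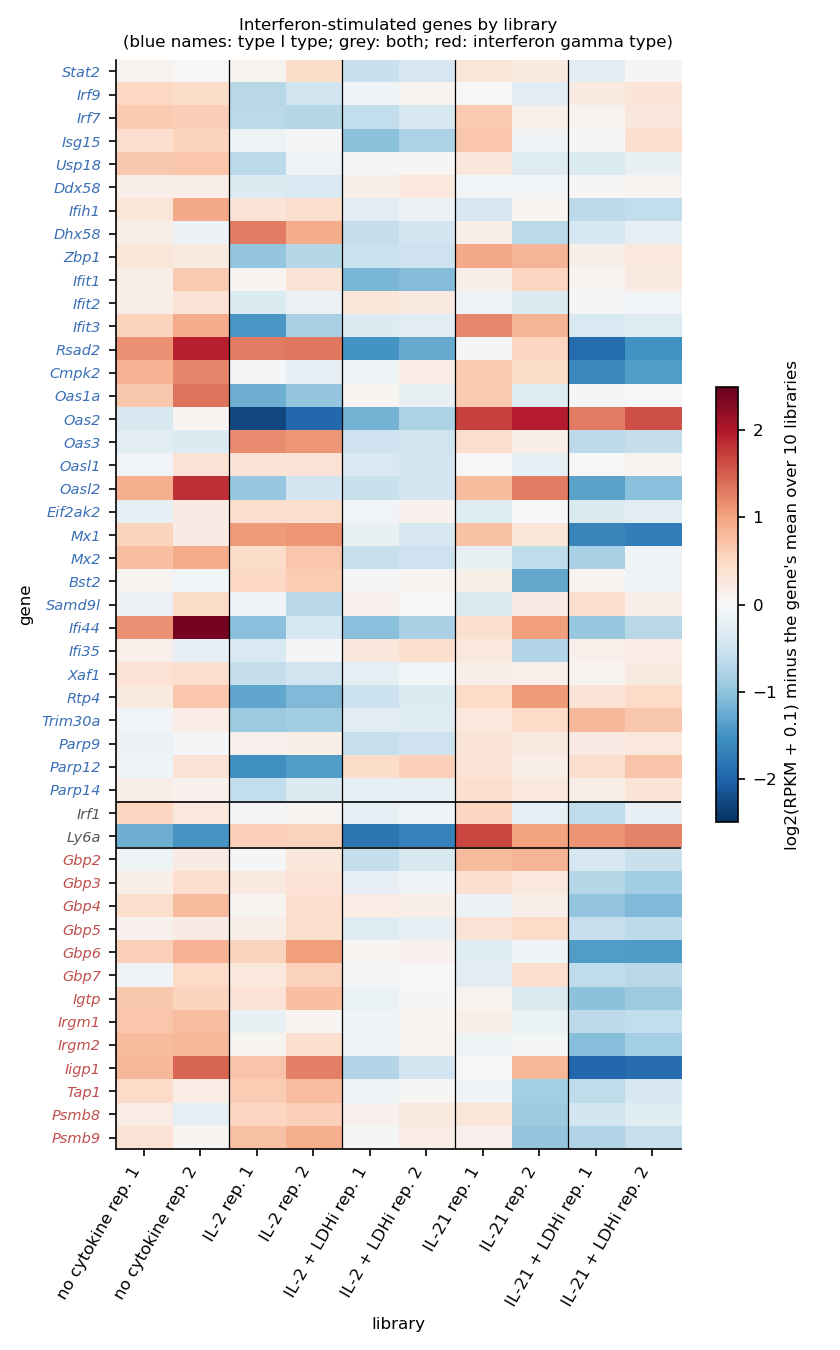
Each row is a member and each column a library, with the colour giving log2(RPKM + 0.1) minus the gene's mean over the 10 libraries (red higher, blue lower). The interferon gamma type rows at the bottom are blue in both IL-21 + LDHi libraries, while blue cells among the type I type rows gather in the IL-2 columns.

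Type I type genes were mostly lower in IL-2 than without cytokine, and most of the interferon gamma type were not called. Against cells without cytokine, 4 members were called higher and 19 lower at an adjusted p under 0.05 (edgeR quasi-likelihood test, Benjamini-Hochberg over all genes), 48.9% of the list, near the 50.5% of all genes tested that were called (25.6% higher, 24.8% lower). The type I type had 3 higher and 17 lower with a median log2 fold change of -0.59, and the interferon gamma type had none higher and 2 lower (Irgm1 and Irgm2) with a median of 0.04, beside -0.03 over all genes. The macrophage and monocyte marker sum fell from 159 to 217 RPKM without cytokine to 12.3 to 15.1 in IL-2, and its part in the result was not tested. Without either IL-21 library, which enters the shared spread only, 9 members were called higher.

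In IL-21, the interferon gamma type had the larger share of falls. Against cells without cytokine, 6 members were higher and 7 lower, 27.7% of the list against 11.5% of all genes (5.65% higher, 5.9% lower). The type I type had 4 higher and 2 lower (median -0.06), and the interferon gamma type 1 higher, Gbp2, and 5 lower (median -0.44). These counts were the least steady: the lower calls numbered 2 and 0 without replicate 1 or 2 of the cells without cytokine, 3 without either IL-2 + LDHi library, 4 without either IL-21 + LDHi library and 11 without IL-21 replicate 1, which also gave 11 higher. Of the 13 calls, only that of Ly6a was made under every alternative tried.

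Set against IL-2, IL-21 gave 18 members higher and 8 lower, 55.3% of the list against 49.6% of all genes (24.9% higher, 24.7% lower). The type I type accounted for 16 of the higher and 4 of the lower calls (median 0.54), and the interferon gamma type for 1 and 4 (median -0.13, which was 0.15 without IL-21 replicate 1). Without IL-2 replicate 2 the lower calls numbered 4. This comparison shares its libraries with the 2 before it.

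With LDHi in IL-2, 8 members rose and 19 fell, 57.4% of the list against 39.4% of all genes (17.8% higher, 21.6% lower). All 8 rises were of the type I type, which also had 10 falls (median 0.15), while the interferon gamma type had 8 falls of 13 (median -0.62). The macrophage and monocyte marker sum was 12.3 to 15.1 RPKM in IL-2 and 15.9 to 22.7 with LDHi, while the NK cell markers stood at 0.845 to 0.858 and 8.09 to 8.87. The rises numbered 3 without IL-2 replicate 1 and 4 or 5 without IL-2 + LDHi replicate 1 or 2, and the falls 9 without IL-2 replicate 2 and 8 or 11 without IL-2 + LDHi replicate 1 or 2.

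With LDHi in IL-21, 1 member rose and 18 fell, 40.4% of the list against 31.4% of all genes (11.1% higher, 20.3% lower). The interferon gamma type had 9 falls of 13 (median -0.93) and the type I type 8 of 32 (median -0.24). The macrophage and monocyte marker sum was 57.7 to 63.7 RPKM in IL-21 and 7.91 to 10.7 with LDHi, and its part was not tested. Without IL-21 replicate 1 the interferon gamma type had 10 falls and a median of -1.24, and without replicate 2 it had 11 falls and a median of -0.79. The single rise, of Irf9, became 3 and 2 rises without IL-21 replicate 1 or 2 and none without either IL-21 + LDHi library.

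With the inhibitor present in both, IL-21 against IL-2 gave 13 members higher and 9 lower, 46.8% of the list against 26.1% of all genes (9.39% higher, 16.7% lower). The type I type had 12 higher and 2 lower (median 0.40) and the interferon gamma type none higher and 7 lower (median -0.49). Leaving out IL-2 + LDHi replicate 2 left 4 lower calls, and leaving out IL-21 + LDHi replicate 1 or 2 left 5 each.

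**Figure D3:**
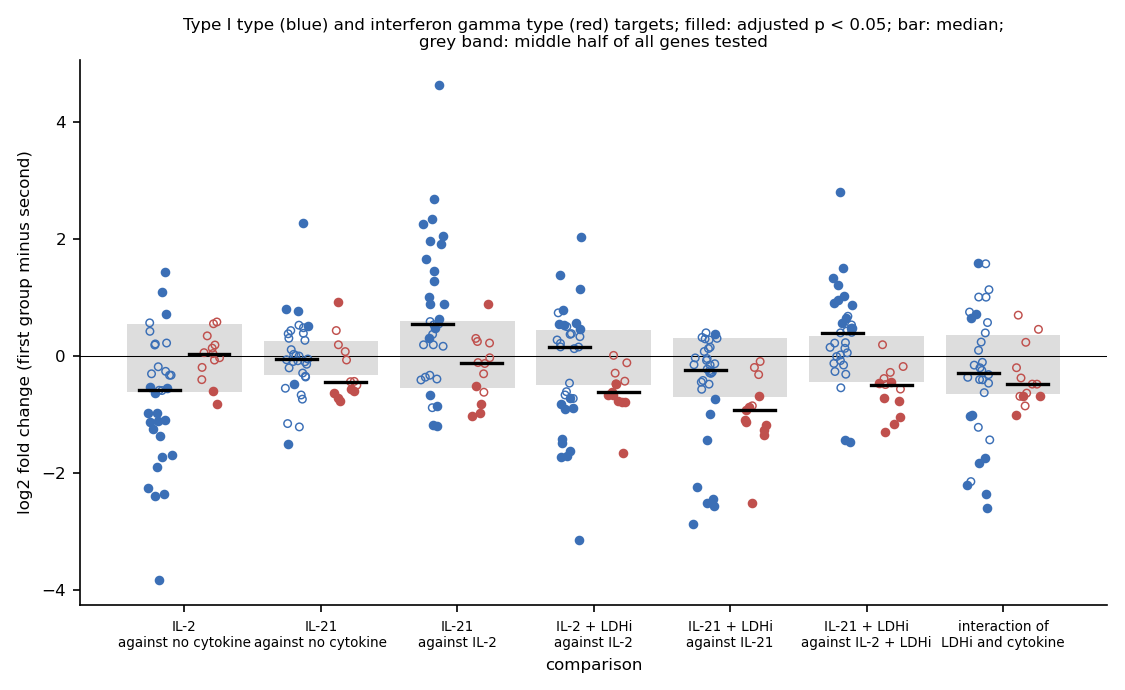
Log2 fold change (vertical axis) of each type I type (blue) and interferon gamma type (red) member in the 7 comparisons (horizontal axis), with filled points for an adjusted p under 0.05, black bars for class medians and a grey band for the middle 50% of all genes tested. The red medians lie at -0.62, -0.93 and -0.49 in the 3 comparisons of groups that involve LDHi. They lie at -0.48 for the interaction and at -0.44 for IL-21 against no cytokine, without LDHi. The blue median lies at -0.59 for IL-2 against no cytokine.

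Of the interferon genes themselves, Ifng alone was measurable. The other 17 interferon genes of the list never had more than 5 reads in a library, 11 of them had none in any library, and none passed the filter. Ifng, the gene of interferon gamma, stood at 1.40 and 1.01 RPKM without cytokine, 3.35 and 4.36 in IL-2, 4.24 and 4.25 in IL-2 + LDHi, 25.5 and 18.4 in IL-21, and 0.507 and 0.281 in IL-21 + LDHi. Both IL-21 libraries stood above all others, and both IL-21 + LDHi libraries below all others. The log2 fold change was 4.33 ± 0.27 (SE) for IL-21 against no cytokine and -5.82 ± 0.30 for IL-21 + LDHi against IL-21. LDHi in IL-2 moved it by 0.10 ± 0.24, which did not pass the test (adjusted p = 0.767), and the interaction, the effect of LDHi in IL-21 minus its effect in IL-2, was -5.92 ± 0.38 (adjusted p = 1.64e-05).

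Of the 6 receptor genes, both chains for interferon gamma changed with LDHi in IL-21, Ifngr1 downward and Ifngr2 upward. Ifngr1, the ligand-binding chain, was measured at 218 and 157 RPKM without cytokine, 304 and 344 in IL-2, 135 and 131 in IL-2 + LDHi, 265 and 187 in IL-21, and 160 and 134 in IL-21 + LDHi. Ifngr2, the signalling chain, had 9.79 and 11.9 RPKM without cytokine, 11.7 and 10.2 in IL-2, 11.0 and 11.2 in IL-2 + LDHi, 4.44 and 4.61 in IL-21, and 11.2 and 11.9 in IL-21 + LDHi. Ifngr2 was lower in both IL-21 libraries than in all 8 others, at a log2 fold change of -1.09 ± 0.16 against no cytokine (lost with only these 2 groups in the fit, adjusted p up to 0.148), and rose by 1.31 ± 0.16 with LDHi in IL-21, whereas Ifngr1 fell with LDHi in IL-2 (log2 fold change -1.32 ± 0.17) and in IL-21 (-0.64 ± 0.17, lost without IL-21 + LDHi replicate 2, adjusted p up to 0.159). The type I receptor chains Ifnar1 and Ifnar2 fell with LDHi in IL-21 (-0.46 ± 0.11, lost without IL-21 + LDHi replicate 1 at an adjusted p up to 0.1, and -0.64 ± 0.11) and were not called with LDHi in IL-2 (-0.19 ± 0.11 and -0.08 ± 0.11). Ifnlr1, a receptor chain for interferon lambda, had at most 12 reads in a library and its fall with LDHi in IL-2 was lost under 11 alternatives (adjusted p up to 0.209).

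Among members that carry or restrain the signal, Irf9 and Irf7 were lowest in IL-2. Irf9, the DNA-binding part of the type I complex, stood at 39.3 and 37.8 RPKM without cytokine, 16.9 and 19.2 in IL-2, 25.2 and 28.7 in IL-2 + LDHi, 27.2 and 22.4 in IL-21, and 31.8 and 34.2 in IL-21 + LDHi. Irf9 fell with IL-2 (log2 fold change -1.11 ± 0.10) and rose with LDHi in IL-2 (0.54 ± 0.10) and in IL-21 (0.38 ± 0.10), the only member called higher with LDHi under both cytokines. The rise in IL-21 was not called without either IL-21 + LDHi library (adjusted p up to 0.137). Irf7, which amplifies type I interferon responses, was measured at 22.96 and 22.1 RPKM without cytokine, 8.97 and 8.79 in IL-2, 9.42 and 10.9 in IL-2 + LDHi, 22.9 and 15.7 in IL-21, and 15.3 and 17.6 in IL-21 + LDHi. Both libraries of each IL-2 group lay below all others, with a log2 fold change of -1.36 ± 0.13 for IL-2 against no cytokine and 0.87 ± 0.13 for IL-21 + LDHi against IL-2 + LDHi, and its changes with LDHi, 0.16 ± 0.13 in IL-2 and -0.25 ± 0.13 in IL-21, did not pass the test.

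Stat2 and Isg15 fell with LDHi in IL-2. Stat2, a part of the type I complex, had 16.1 and 15.2 RPKM without cytokine, 16.1 and 20.8 in IL-2, 10.3 and 11.3 in IL-2 + LDHi, 18.5 and 17.9 in IL-21, and 12.6 and 15.5 in IL-21 + LDHi. Its log2 fold change with LDHi in IL-2 was -0.81 ± 0.15. Isg15, a ubiquitin-like modifier, reached 5.66 and 6.27 RPKM without cytokine, 3.86 and 4.16 in IL-2, 2.02 and 2.39 in IL-2 + LDHi, 6.89 and 3.997 in IL-21, and 4.15 and 5.70 in IL-21 + LDHi. Its fall with LDHi in IL-2 (-0.91 ± 0.25) was lost when any 1 of the 4 libraries compared was left out and with limma on RPKM (adjusted p up to 0.133). Usp18, the protease that removes Isg15 and damps the type I receptor, stood at 5.04 and 5.17 RPKM without cytokine, 1.95 and 2.87 in IL-2, 3.05 and 3.19 in IL-2 + LDHi, 3.86 and 2.48 in IL-21, and 2.46 and 2.75 in IL-21 + LDHi. Usp18 fell with IL-2 (-1.100 ± 0.21) and was called in no other comparison. Irf1, a factor induced by both interferons, was measured at 134 and 110 RPKM without cytokine, 88.4 and 97.2 in IL-2, 79.0 and 85.7 in IL-2 + LDHi, 134 and 80.1 in IL-21, and 59.3 and 80.4 in IL-21 + LDHi. Its single call, a log2 fold change of -0.62 ± 0.18 with LDHi in IL-21, was lost without IL-21 replicate 1, IL-21 + LDHi replicate 1 or any 1 of the IL-2 libraries with or without LDHi (adjusted p up to 0.211).

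The sensors did not move together. Zbp1, a sensor of Z-form nucleic acid, had 44.5 and 42.4 RPKM without cytokine, 18.4 and 22.1 in IL-2, 25.003 and 25.3 in IL-2 + LDHi, 69.5 and 65.5 in IL-21, and 40.0 and 43.2 in IL-21 + LDHi. Zbp1 fell with IL-2 (log2 fold change -1.12 ± 0.12), stood higher in IL-21 than without cytokine (0.80 ± 0.12) and fell with LDHi in IL-21 (-0.74 ± 0.12). Dhx58, the RIG-I-like receptor LGP2 that tunes the other RNA sensors, reached 5.55 and 4.45 RPKM without cytokine, 12.2 and 9.48 in IL-2, 3.25 and 3.49 in IL-2 + LDHi, 5.48 and 3.06 in IL-21, and 3.62 and 4.20 in IL-21 + LDHi. It went the opposite way to Zbp1 in IL-2, rising by 1.101 ± 0.21, and fell with LDHi in IL-2 (-1.73 ± 0.22). Ddx58, the RNA sensor RIG-I, had 22.7 and 22.8 RPKM without cytokine, 15.99 and 15.6 in IL-2, 22.9 and 24.4 in IL-2 + LDHi, 19.4 and 19.4 in IL-21, and 20.9 and 21.4 in IL-21 + LDHi. It fell with IL-2 (-0.55 ± 0.11) and rose with LDHi in IL-2 (0.54 ± 0.11), while Ifih1, the sensor MDA5, ranged over 1.45 to 4.64 RPKM and was called in no comparison.

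In the antiviral Ifit group, levels and directions differed from gene to gene. Ifit3, which binds its relatives in a complex that captures viral RNA, stood at 8.62 and 11.3 RPKM without cytokine, 2.07 and 3.31 in IL-2, 4.63 and 4.87 in IL-2 + LDHi, 13.7 and 10.6 in IL-21, and 4.49 and 4.70 in IL-21 + LDHi. Ifit3 fell with IL-2 (log2 fold change -1.91 ± 0.22), rose with LDHi in IL-2 (0.78 ± 0.22) and fell with LDHi in IL-21 (-1.43 ± 0.21), so that its 4 values with LDHi lay between 4.49 and 4.87 RPKM. The rise in IL-2 was lost without IL-2 replicate 1 or either IL-2 + LDHi library (adjusted p up to 0.126), and 51.2% of the 50-base windows of Ifit3 also occur in Ifit3b, so its reads cannot be assigned with certainty. Ifit1, which binds viral RNA caps, was measured at 3.64 and 5.16 RPKM without cytokine, 3.40 and 4.04 in IL-2, 1.41 and 1.46 in IL-2 + LDHi, 3.62 and 4.74 in IL-21, and 3.40 and 3.80 in IL-21 + LDHi. Its log2 fold change with LDHi in IL-2 was -1.41 ± 0.26. Ifit2, a relative, had 13.2 and 15.3 RPKM without cytokine, 9.28 and 10.6 in IL-2, 14.5 and 13.8 in IL-2 + LDHi, 11.0 and 9.12 in IL-21, and 11.6 and 11.2 in IL-21 + LDHi. It fell with IL-2 (-0.54 ± 0.11) and rose with LDHi in IL-2 (0.47 ± 0.11), a call lost without IL-2 replicate 1 or IL-2 + LDHi replicate 1 (adjusted p up to 0.094).

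Rsad2 and Cmpk2 lie next to each other on chromosome 12 and are often induced together. Rsad2 (viperin), an enzyme that makes a chain-terminating nucleotide, reached 1.87 and 3.32 RPKM without cytokine, 2.08 and 2.11 in IL-2, 0.214 and 0.274 in IL-2 + LDHi, 0.775 and 1.19 in IL-21, and 0.135 and 0.211 in IL-21 + LDHi. All 4 libraries with LDHi lay below all 6 without, at a log2 fold change of -3.14 ± 0.40 in IL-2 and -2.57 ± 0.41 in IL-21. Cmpk2, a mitochondrial nucleotide kinase, stood at 4.27 and 5.47 RPKM without cytokine, 2.202 and 1.97 in IL-2, 2.07 and 2.62 in IL-2 + LDHi, 3.65 and 3.17 in IL-21, and 0.677 and 0.806 in IL-21 + LDHi. LDHi lowered Cmpk2 in IL-21 (-2.23 ± 0.20) and its change in IL-2 did not pass the test (0.13 ± 0.19), and the interaction was -2.36 ± 0.27 for Cmpk2 and 0.57 ± 0.56, not called, for Rsad2.

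Among the 2′-5′ oligoadenylate synthetases (Oas), which make the messenger that activates RNase L, Oas2 was higher in IL-21 than in IL-2 and Oas3 lower (-0.66 ± 0.10). Oas2 was measured at 0.973 and 1.37 RPKM without cytokine, 0.193 and 0.267 in IL-2, 0.527 and 0.720 in IL-2 + LDHi, 4.55 and 5.48 in IL-21, and 3.41 and 4.25 in IL-21 + LDHi. Both groups with IL-21 stood above the other three, with a log2 fold change of 4.64 ± 0.32 for IL-21 against IL-2 and 2.80 ± 0.29 with LDHi in both. Oas3, the member that answers long RNA, had 6.67 and 6.32 RPKM without cytokine, 18.2 and 17.3 in IL-2, 5.54 and 5.65 in IL-2 + LDHi, 10.9 and 9.004 in IL-21, and 5.02 and 5.24 in IL-21 + LDHi. Its level was highest in IL-2, at 1.43 ± 0.10 against no cytokine, and with LDHi all 4 libraries lay between 5.02 and 5.65, a log2 fold change of -1.71 ± 0.10 in IL-2 and -0.99 ± 0.10 in IL-21. Oasl2, an Oas-like protein, reached 3.67 and 7.03 RPKM without cytokine, 0.937 and 1.33 in IL-2, 1.26 and 1.33 in IL-2 + LDHi, 3.35 and 4.80 in IL-21, and 0.695 and 0.871 in IL-21 + LDHi. It fell with IL-2 (-2.26 ± 0.37) and with LDHi in IL-21 (-2.45 ± 0.38). Oas1a, at 0.394 to 2.86 RPKM, fell with IL-2 (-2.39 ± 0.35), although 57.6% of its windows occur in Oas1g, and Oasl1, at 0.772 to 1.44 RPKM, fell with LDHi in IL-2 (-0.88 ± 0.22), a call lost when any 1 of the 4 libraries was left out (adjusted p up to 0.103). Eif2ak2, the kinase PKR that stops translation, ranged over 7.23 to 12.7 RPKM and was called in no comparison.

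The Mx genes were low, and Mx1 fell with the inhibitor under both cytokines. Mx1, a dynamin-like antiviral GTPase whose allele in C57BL/6 mice is inactive, stood at 2.23 and 1.72 RPKM without cytokine, 3.23 and 3.32 in IL-2, 1.29 and 1.09 in IL-2 + LDHi, 2.55 and 1.86 in IL-21, and 0.402 and 0.379 in IL-21 + LDHi. It was lowest in both IL-21 + LDHi libraries, without overlap with any other group, at a log2 fold change of -1.495 ± 0.19 with LDHi in IL-2 and -2.52 ± 0.21 in IL-21. Mx2 reached at most 0.567 RPKM and fell with LDHi in IL-2 (-1.62 ± 0.41), a call lost without IL-2 replicate 2 or either IL-2 + LDHi library (adjusted p up to 0.0881).

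Trim30a, Rtp4 and Xaf1 were lowest in IL-2 and higher in IL-21. Trim30a, a ubiquitin ligase that restrains innate signalling, was measured at 39.3 and 47.1 RPKM without cytokine, 22.1 and 22.4 in IL-2, 34.4 and 33.3 in IL-2 + LDHi, 49.6 and 57.3 in IL-21, and 72.8 and 65.8 in IL-21 + LDHi. It fell with IL-2 (log2 fold change -0.98 ± 0.17) and was highest in IL-21 + LDHi, 1.21 ± 0.17 above IL-2 + LDHi. Rtp4, an inhibitor of flavivirus RNA synthesis, had 11.7 and 15.9 RPKM without cytokine, 3.93 and 4.53 in IL-2, 6.76 and 7.76 in IL-2 + LDHi, 13.9 and 20.9 in IL-21, and 12.3 and 13.9 in IL-21 + LDHi. Its log2 fold changes were -1.73 ± 0.28 for IL-2 against no cytokine and 2.253 ± 0.28 for IL-21 against IL-2. Xaf1, an antagonist of the apoptosis inhibitor XIAP, reached 9.36 and 9.82 RPKM without cytokine, 4.75 and 5.09 in IL-2, 6.22 and 6.87 in IL-2 + LDHi, 8.13 and 7.90 in IL-21, and 7.64 and 8.49 in IL-21 + LDHi. Xaf1 differed by -0.98 ± 0.13 and 0.89 ± 0.13 in the same comparisons, and LDHi moved neither Rtp4 nor Xaf1 past the test under either cytokine.

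The 2 IL-21 libraries disagreed over Bst2. Bst2 (tetherin), which holds budding virus at the surface, stood at 24.0 and 21.7 RPKM without cytokine, 33.0 and 35.7 in IL-2, 22.3 and 24.0 in IL-2 + LDHi, 25.4 and 9.42 in IL-21, and 23.9 and 21.3 in IL-21 + LDHi. Its call in IL-21 against IL-2 (-0.86 ± 0.29) was lost under 9 of the alternatives, among them leaving out either IL-2 library (adjusted p up to 0.147). Ifi35 (12.001 to 26.3 RPKM) and Samd9l (24.7 to 55.6 RPKM), a restrictor of viral and cell growth, were called nowhere. Ifi44, with 0.476 and 1.27 RPKM without cytokine, 0.0277 and 0.0933 in IL-2, 0.0274 and 0.04997 in IL-2 + LDHi, 0.246 and 0.440 in IL-21, and 0.0350 and 0.0617 in IL-21 + LDHi, fell with IL-2 (-3.83 ± 0.71).

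Of the ADP-ribosyltransferases (Parp), Parp12 separated IL-2 from every other group. Parp12, which blocks translation of viral RNA, was measured at 3.52 and 4.88 RPKM without cytokine, 1.25 and 1.38 in IL-2, 5.26 and 5.76 in IL-2 + LDHi, 4.82 and 4.25 in IL-21, and 5.13 and 6.26 in IL-21 + LDHi. Both IL-2 libraries lay below all 8 others, and LDHi in IL-2 raised it by 2.03 ± 0.19, the largest rise of a member in that comparison, while in IL-21 the change was 0.29 ± 0.18 and not called. Parp9, which acts with the ligase Dtx3l, had 31.8 and 34.5 RPKM without cytokine, 37.9 and 39.6 in IL-2, 23.5 and 24.7 in IL-2 + LDHi, 44.0 and 40.9 in IL-21, and 40.7 and 42.1 in IL-21 + LDHi. Parp14, a regulator of Stat signalling, reached 27.2 and 26.2 RPKM without cytokine, 15.9 and 19.2 in IL-2, 20.98 and 20.8 in IL-2 + LDHi, 32.8 and 29.4 in IL-21, and 27.2 and 30.4 in IL-21 + LDHi. Parp9 fell with LDHi in IL-2 (-0.73 ± 0.11) and was not called in IL-21 (-0.07 ± 0.11, adjusted p = 0.62), and Parp14 stood higher in IL-21 than in IL-2 with the inhibitor (0.64 ± 0.12) and without it (1.01 ± 0.12).

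**Figure D4:**
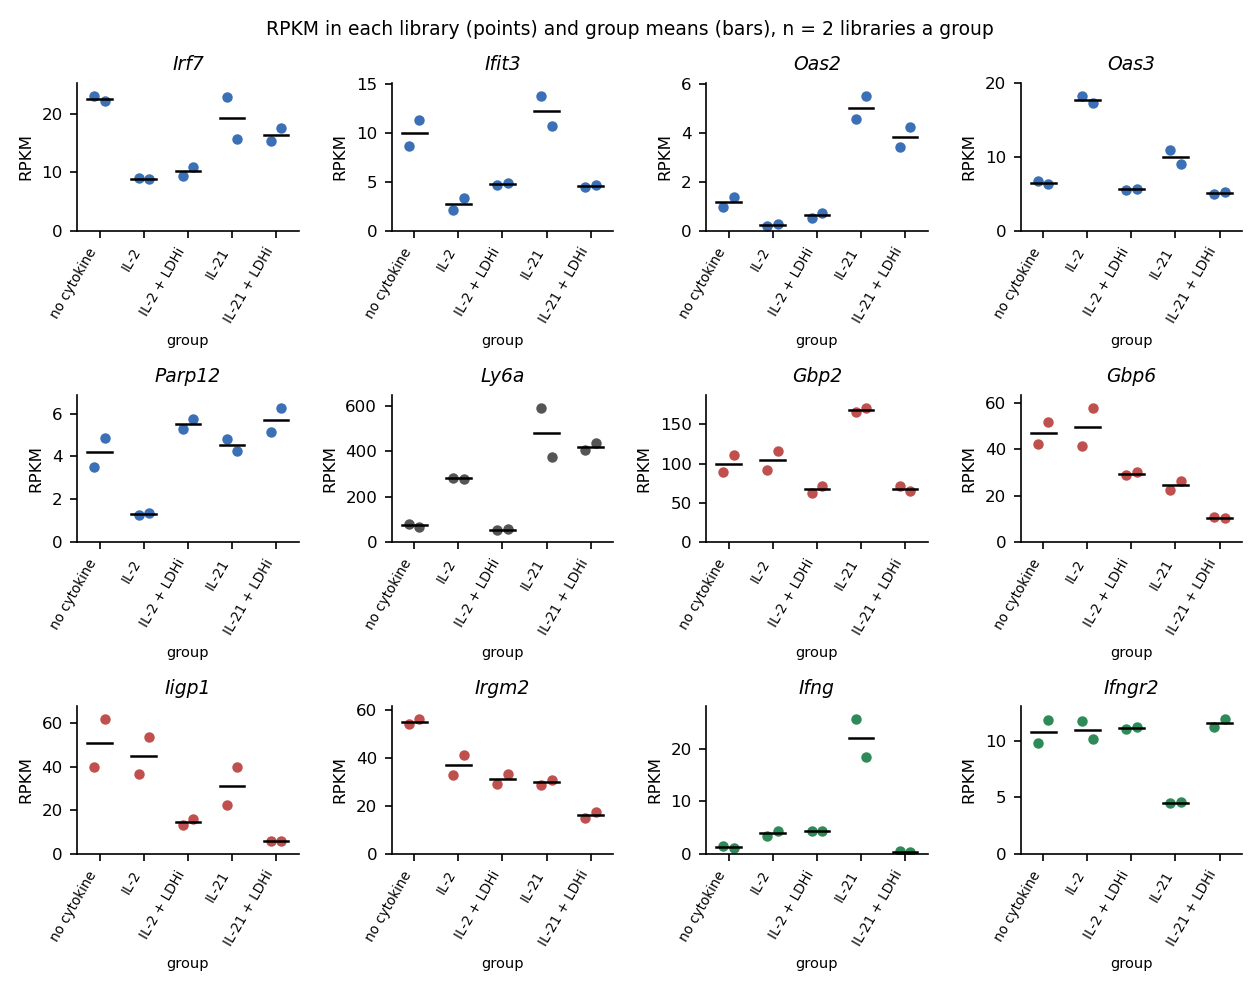
RPKM (vertical axes, from 0) in each library as points and group means as bars for 10 members, Ifng and Ifngr2, with 2 libraries a group. Ifng is highest in IL-21 while Gbp6, Iigp1 and Irgm2 are lowest in IL-21 + LDHi, Ifngr2 is lowest in IL-21, and Parp12 and Irf7 show low points in IL-2.

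The guanylate binding proteins, which coat pathogen vacuoles and are made in bulk on exposure to interferon gamma, mostly fell with LDHi. Of the 6 genes, 4 fell with LDHi in IL-2 and 5 in IL-21, beside 21.6% and 20.3% of all genes. None was called for IL-2 against no cytokine, where 50.5% of all genes were. Gbp2 stood at 88.8 and 111 RPKM without cytokine, 92.0 and 116 in IL-2, 62.9 and 72.1 in IL-2 + LDHi, 166 and 171 in IL-21, and 71.0 and 65.1 in IL-21 + LDHi. It was the only interferon gamma type member called higher in IL-21 than without cytokine (0.92 ± 0.17, lost without replicate 1 of the cells without cytokine, adjusted p up to 0.159), and its log2 fold change with LDHi in IL-21 was -1.35 ± 0.18. Gbp6 was measured at 42.1 and 51.5 RPKM without cytokine, 41.2 and 57.7 in IL-2, 28.8 and 30.2 in IL-2 + LDHi, 22.6 and 26.2 in IL-21, and 10.7 and 10.5 in IL-21 + LDHi. It was lower in IL-21 than in IL-2 (-0.82 ± 0.20, lost without IL-2 replicate 2, adjusted p up to 0.0745) and lower again with LDHi in IL-21 (-1.26 ± 0.20), and 70.7% of its windows occur in other genes.

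Gbp3, Gbp4 and Gbp5 were lowest in IL-21 + LDHi with no overlap with any other group. Gbp4 had 85.0 and 108 RPKM without cytokine, 65.2 and 83.0 in IL-2, 70.8 and 69.7 in IL-2 + LDHi, 56.1 and 70.0 in IL-21, and 31.2 and 29.0 in IL-21 + LDHi. Its fall with LDHi was -1.13 ± 0.21 in IL-21 and -0.12 ± 0.21, not called, in IL-2. Gbp3 reached 19.4 and 23.4 RPKM without cytokine, 20.3 and 22.1 in IL-2, 14.96 and 16.3 in IL-2 + LDHi, 23.2 and 20.6 in IL-21, and 10.5 and 9.41 in IL-21 + LDHi. It changed by -0.48 ± 0.13 with LDHi in IL-2 and -1.17 ± 0.13 in IL-21. Gbp5, which takes part in inflammasome activation, stood at 17.0 and 18.04 RPKM without cytokine, 17.6 and 21.4 in IL-2, 12.6 and 13.6 in IL-2 + LDHi, 20.3 and 21.8 in IL-21, and 10.5 and 9.91 in IL-21 + LDHi. Its changes were -0.62 ± 0.15 in IL-2 and -1.096 ± 0.15 in IL-21. Gbp7, at 17.0 to 41.6 RPKM, was called in no comparison, and its change with LDHi in IL-21 was -0.85 ± 0.29 (adjusted p = 0.0546). In IL-2 the falls of Gbp2, Gbp5 and Gbp6 were lost without IL-2 replicate 2 or either IL-2 + LDHi library and that of Gbp3 when any 1 of the 4 libraries was left out or library size alone set the scale (adjusted p up to 0.124, 0.0942, 0.119 and 0.121), whereas in IL-21 all 5 falls were called under every alternative.

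All 4 immunity-related GTPases, which attack the vacuoles of intracellular parasites, fell with LDHi in IL-21, where 20.3% of all genes fell. Iigp1, an effector GTPase loaded onto vacuoles, was measured at 39.9 and 61.7 RPKM without cytokine, 36.5 and 53.6 in IL-2, 13.4 and 15.97 in IL-2 + LDHi, 22.4 and 39.9 in IL-21, and 5.68 and 5.92 in IL-21 + LDHi. The 4 libraries with LDHi lay below the 6 without, at a log2 fold change of -1.66 ± 0.36 in IL-2 (adjusted p up to 0.0515, without IL-2 + LDHi replicate 1) and -2.51 ± 0.37 in IL-21. Igtp (Irgm3), a regulatory GTPase, had 239 and 221 RPKM without cytokine, 194 and 251 in IL-2, 134 and 153 in IL-2 + LDHi, 160 and 117 in IL-21, and 73.9 and 79.5 in IL-21 + LDHi. It fell with LDHi, at -0.67 ± 0.14 in IL-2 and -0.87 ± 0.14 in IL-21. The fall of Igtp in IL-2 was lost without IL-2 replicate 2 or IL-2 + LDHi replicate 1 (adjusted p up to 0.0599).

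The other two regulatory GTPases were highest without cytokine. Irgm1 reached 115 and 121 RPKM without cytokine, 62.3 and 73.2 in IL-2, 67.1 and 73.2 in IL-2 + LDHi, 79.7 and 63.4 in IL-21, and 44.9 and 46.4 in IL-21 + LDHi. Irgm1 fell with IL-2 (-0.82 ± 0.11) and with LDHi in IL-21 (-0.68 ± 0.11), and was not called with LDHi in IL-2 (0.01 ± 0.11). Irgm2, the gene whose promoter is shown above beside that of Igtp, stood at 54.5 and 56.2 RPKM without cytokine, 33.0 and 41.4 in IL-2, 29.1 and 33.3 in IL-2 + LDHi, 28.9 and 30.7 in IL-21, and 14.95 and 17.5 in IL-21 + LDHi. Irgm2 fell, at a log2 fold change of -0.93 ± 0.16, with LDHi in IL-21, and its changes for IL-2 (-0.59 ± 0.16) and IL-21 (-0.72 ± 0.16) against no cytokine were lost without replicate 2 of the cells without cytokine, the first also without IL-2 replicate 1 and the second also without replicate 1 of the cells without cytokine (adjusted p up to 0.112 and 0.216).

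The antigen processing genes had their highest values in IL-2, although none of the 3 was called for IL-2 against no cytokine (50.5% of all genes). Tap1, a chain of the peptide transporter, was measured at 124 and 101 RPKM without cytokine, 137 and 152 in IL-2, 81.2 and 90.2 in IL-2 + LDHi, 83.3 and 49.04 in IL-21, and 57.3 and 67.2 in IL-21 + LDHi. Psmb9, a catalytic subunit of the immunoproteasome, had 107 and 85.5 RPKM without cytokine, 137 and 154 in IL-2, 80.7 and 94.5 in IL-2 + LDHi, 89.0 and 41.9 in IL-21, and 49.2 and 55.2 in IL-21 + LDHi. Psmb8, another such subunit, reached 219 and 165 RPKM without cytokine, 279 and 291 in IL-2, 206.9 and 228 in IL-2 + LDHi, 237 and 103 in IL-21, and 138 and 156 in IL-21 + LDHi. In IL-2 all 3 lay above every other library, and LDHi in IL-2 lowered Tap1 (-0.79 ± 0.17) and Psmb9 (-0.77 ± 0.23), calls lost without IL-2 replicate 2 or IL-2 + LDHi replicate 1 (adjusted p up to 0.0594 and 0.148), and for Psmb9 also without the other two libraries. In IL-21 none of the 3 was called with LDHi (31.4% of all genes). IL-21 replicate 2 had the lowest value of all 10 libraries in each of the 3. It was also the library with the smallest share of its reads on the kept transcripts (59.9%), whose part was not tested. The log2 fold change of IL-21 against IL-2 was -0.98 ± 0.17 for Tap1 and -1.02 ± 0.23 for Psmb9. Psmb8 was called in no comparison. B2m, the light chain of MHC class I, went the other way in IL-21 replicate 2, at 3443 against 1754 RPKM in replicate 1, and was called in no comparison.

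Ly6a (Sca-1), a surface antigen of activated T cells induced by both interferons, rose with both cytokines. Ly6a stood at 79.6 and 66.8 RPKM without cytokine, 282 and 278 in IL-2, 52.7 and 57.4 in IL-2 + LDHi, 591 and 373 in IL-21, and 404 and 437 in IL-21 + LDHi. Its log2 fold change was 1.92 ± 0.15 for IL-2 and 2.85 ± 0.15 for IL-21, and LDHi lowered it in IL-2 (-2.39 ± 0.15) while the change in IL-21 did not pass the test (-0.21 ± 0.14, adjusted p = 0.295). With the inhibitor present, IL-21 stood 3.12 ± 0.15 above IL-2, and the interaction was 2.18 ± 0.20 (adjusted p = 0.000138). Of the 50-base windows of Ly6a, 19% occur in other genes, and 15% occur in Ly6c1.

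The inhibitor's effects in IL-2 and in IL-21 share no library and can be set side by side. In both, 9 members fell, 6 of 13 of the interferon gamma type (Gbp2, Gbp3, Gbp5, Gbp6, Igtp and Iigp1) and 3 of 32 of the type I type (Rsad2, Oas3 and Mx1). Each of these 6 interferon gamma type falls was lost in IL-2 under at least 1 alternative, and those of Rsad2, Oas3 and Mx1 were not. Irf9 rose in both, Ifit3 rose in IL-2 and fell in IL-21, and 12 members were called in neither. Over all genes, 39.4% were called with LDHi in IL-2 (21.6% lower) and 31.4% in IL-21 (20.3% lower). The shares of all genes that fell in both or were called in neither were not counted. The interaction was called for 14 of 47 members, 4 above and 10 below 0 (29.8%, against 21.8% of all genes, 7.98% above and 13.8% below), with 3 above and 7 below for the type I type and 3 below for the interferon gamma type (Irgm1, Gbp3 and Gbp4, each lost without at least 1 library). The count below 0 was 5 without IL-2 replicate 1 or IL-2 + LDHi replicate 2, 6 without IL-21 + LDHi replicate 1 and 19 without IL-21 replicate 1, which also gave 10 above.

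**Figure D5:**
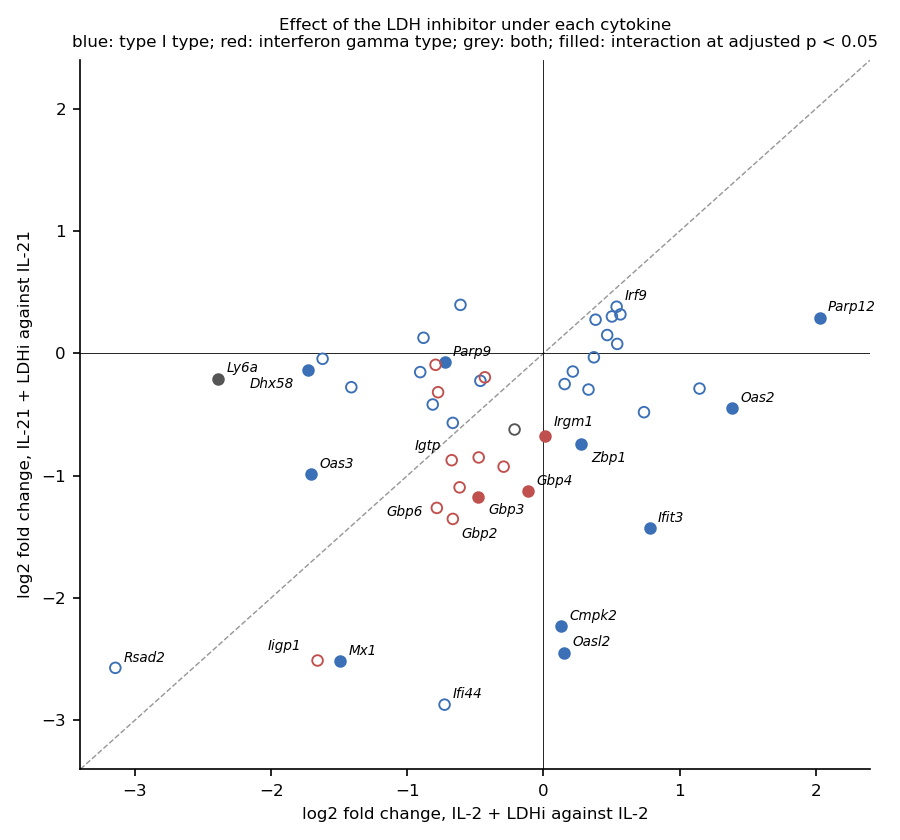
Log2 fold change with LDHi in IL-2 (horizontal axis) against that in IL-21 (vertical axis) for the 47 members, filled where the interaction passed an adjusted p of 0.05, with a dashed line of equal change. Rsad2, Mx1 and Iigp1 lie low on both axes, Ly6a and Dhx58 lie far left near 0 on the vertical axis, and Cmpk2 and Oasl2 lie low on the vertical axis alone.

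Interferon-stimulated genes outside the 47 were also mostly lower in IL-2. Of 32 other such genes, 2 were higher and 22 lower in IL-2 than without cytokine (25.6% and 24.8% of all genes). With LDHi in IL-2, 13 rose and 5 fell (17.8% and 21.6% of all genes), and with LDHi in IL-21 none rose and 14 fell (11.1% and 20.3% of all genes). Slfn1, a Schlafen protein that restrains T cell proliferation, was measured at 132 and 138 RPKM without cytokine, 33.1 and 37.0 in IL-2, 116 and 111 in IL-2 + LDHi, 111 and 103 in IL-21, and 115 and 90.8 in IL-21 + LDHi. Slfn1 fell with IL-2 (log2 fold change -1.96 ± 0.14) and rose with LDHi in IL-2 (1.65 ± 0.14). Gbp10 had 30.9 and 40.4 RPKM without cytokine, 26.7 and 38.4 in IL-2, 16.1 and 16.8 in IL-2 + LDHi, 15.3 and 19.2 in IL-21, and 5.39 and 5.24 in IL-21 + LDHi. It fell with LDHi in IL-2 (-1.02 ± 0.23, lost without IL-2 replicate 2 or IL-2 + LDHi replicate 1, adjusted p up to 0.0676) and in IL-21 (-1.76 ± 0.24). Of the 12 genes of MHC class I and its loading outside the list, 4 were lower in IL-2 than without cytokine (24.8% of all genes), 1 (Erap1, which trims peptides) rose with LDHi in IL-2 (a call lost without either IL-2 + LDHi library, adjusted p up to 0.056), and none was called with LDHi in IL-21.

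Of 6 inhibitors of the pathway, Socs3 moved most. Socs3, an inhibitor that IL-21 is known to induce through Stat3, reached 16.1 and 16.3 RPKM without cytokine, 12.6 and 12.3 in IL-2, 19.3 and 22.1 in IL-2 + LDHi, 213.99 and 134 in IL-21, and 226 and 277 in IL-21 + LDHi. All 4 libraries with IL-21 lay above the other 6, and the log2 fold change was 3.56 ± 0.17 for IL-21 against no cytokine and 0.52 ± 0.15 with LDHi in IL-21, the latter lost without either IL-2 library, IL-21 replicate 2 or IL-21 + LDHi replicate 2 (adjusted p up to 0.2). Socs1, the inhibitor that acts on both interferon receptors, stood at 32.5 and 24.7 RPKM without cytokine, 34.9 and 36.7 in IL-2, 32.1 and 39.4 in IL-2 + LDHi, 30.1 and 15.5 in IL-21, and 14.2 and 22.7 in IL-21 + LDHi. It was called in no comparison. Nlrc5, the transactivator of MHC class I genes, was not called in any comparison either, at 0.05 ± 0.18 with LDHi in IL-2 and 0.16 ± 0.18 in IL-21.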

How the data were processed

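RNA-seq libraries of 5 groups of 2 were read from 1 table a library. Per the file headers, each deposited table gives the authors' read count and RPKM for each transcript, with its length. TopHat2 2.2.1, Bowtie2 2.2.6, SAMtools 0.1.8, bedtools 2.25.0 and edgeR are named in the submitters' processing notes, with mm10; the counting mode and strand setting are not given in the sources used here, so reads of overlapping or near-identical genes cannot be separated. From these tables, the transcript with the most reads stood for each symbol. Library totals ran from 45138204 to 62848913 reads. Counts were tested in edgeR 4.0.16 (R 4.3.3; TMM scaling, filterByExpr with a minimum count of 10, robust quasi-likelihood fit over all 10 libraries, common coefficient of variation 17.1%), with Benjamini-Hochberg adjustment over 14357 genes and a threshold of 0.05. RPKM served for levels only. Counts were also simulated for IL-2 + LDHi against IL-2 (14042 genes). Calls were made for 59.0% of 100 genes given a 2-fold change and 89.8% of 98 given a 4-fold change. All other genes had the same mean in every group, and 8 of the 155 calls fell on them. In the data 39.4% of genes were called in this comparison, so the simulated shares need not hold there.

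Values in every library were given for factors and feedback members and, per comparison, for up to 10 called members in each direction with non-overlapping replicates and a mean of at least 5 RPKM in the higher group; 9 pathway genes were fixed besides, 1 of which is not reported here, and others followed the same rule from fixed lists. The members, classes and lists were chosen with earlier results of these data known. Alternatives were RLE scaling, scaling by library size alone, no filter, a filter at 5 RPKM, the longest transcript, the replicate number as a block, only the groups compared, DESeq2 1.42.0, limma 3.58.1 on log2(RPKM + 1), and leaving out each library.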

Additional observations from a re-analysis of the deposited data

Results flagged for a closer look

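The effect of LDHi in IL-21 differed from that in IL-2 by the interaction term in edgeR (adjusted p under 0.05) for 14 members. Values are the log2 effect in IL-21 minus that in IL-2. Above 0 lay Ly6a at 2.184, Dhx58 at 1.596, Oas3 at 0.7196 and Parp9 at 0.6506, which fell less with the inhibitor in IL-21 than in IL-2. Below 0 lay Oasl2 at -2.601, Cmpk2 at -2.358, Ifit3 at -2.21, Oas2 at -1.835, Parp12 at -1.736, Mx1 at -1.021, Zbp1 at -1.012, Gbp4 at -1.012, Gbp3 at -0.6914 and Irgm1 at -0.6871. The calls for Gbp3, Gbp4, Irgm1, Mx1, Oas2 and Parp9 were lost without at least 1 of the libraries compared, with adjusted p up to 0.11, 0.148, 0.0694, 0.474, 0.06 and 0.0774. IL-21 libraries had the widest spread between replicates, and the marker sum of macrophages and monocytes fell with LDHi in IL-21 and not in IL-2. Single markers moved both ways with LDHi in IL-2, where mean Cd68 fell from 10.7 to 3.87 RPKM and mean Lyz2 rose from 1.38 to 8.67. The part of the replicate spread and of these markers in the differences was not tested.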

How the results depend on the processing

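No member's called fold change reversed under any of the 9 alternatives and 10 fits without a library, and 88 of the 144 calls of members in the 7 comparisons were made in every one. Calls kept throughout numbered 21 of 23 for IL-2 and 1 of 13 for IL-21 against no cytokine, 19 of 26 for IL-21 against IL-2, 11 of 27 for LDHi in IL-2, 16 of 19 for LDHi in IL-21, 12 of 22 for IL-21 + LDHi against IL-2 + LDHi and 8 of 14 for the interaction. For each value below that moved with the setting, the cause was not tested beyond what the setting itself removes.

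With library size alone, the median of all genes shifted by -0.138 for IL-2 against no cytokine, 0.118 for LDHi in IL-2 and -0.14 for the interaction, and the members' medians became -0.4756, -0.345 and -0.5172 (type I type in the first, -0.7318). With limma on log2(RPKM + 1), the members' median was -0.1971 for IL-2 and -0.2263 for IL-21 against no cytokine (interferon gamma type in the latter, -0.6347), 0.1096 for IL-21 against IL-2 (type I type 0.299, interferon gamma type -0.351), -0.3202 for LDHi in IL-2, -0.2268 for LDHi in IL-21, and -0.08593 for IL-21 + LDHi against IL-2 + LDHi (type I type 0.0319), and no member rose with LDHi in IL-21 (0). The filter at 5 RPKM gave medians of -0.3582 and, for the type I type, 0.3337 with LDHi in IL-2, and 6 interactions below 0; DESeq2 gave 7 above. With only the groups compared, the calls were 7 higher for IL-2 against no cytokine, 1 higher with 0 lower for IL-21 against no cytokine, 4 lower in IL-21 against IL-2, 13 higher with LDHi in IL-2, 0 higher with LDHi in IL-21 and 16 lower in IL-21 + LDHi against IL-2 + LDHi.

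Same-numbered libraries did not pair across all groups (correlations of replicate differences from -0.265 to 0.642 over 10 pairs of groups, 4 of them above 0.1). The highest, 0.642, was that of no cytokine with IL-21. IL-2 reached 0.199 with each of the groups with LDHi, and these reached 0.289 with each other. The remaining pairs had negative correlations. The replicate number as a block gave 4 higher and 19 lower for IL-2 against no cytokine and 5 interactions above and 14 below 0. Over all comparisons it removed 1 member call (Tap1, IL-21 against no cytokine, adjusted p = 0.0567) and added 12.

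Leaving out 1 library at a time (an arm left with 1 library is assumed to vary like the other groups) gave the following ranges of calls and of log2 medians. For IL-2 against no cytokine, 3 to 9 members were higher and 18 to 22 lower, with medians of -0.5558 to -0.2094 (all), -0.6782 to -0.5177 (type I type) and -0.1049 to 0.1949 (interferon gamma type). For IL-21 against no cytokine, 4 to 11 members were higher and 0 to 11 lower, with medians of -0.1667 to -0.0399 (all), -0.1063 to 0.09798 (type I type) and -0.53 to -0.2499 (interferon gamma type). For IL-21 against IL-2, 16 to 21 members were higher and 4 to 12 lower, with medians of 0.1751 to 0.3638 (all), 0.5281 to 0.6263 (type I type) and -0.3721 to 0.1492 (interferon gamma type). For LDHi in IL-2, 3 to 12 members were higher and 8 to 24 lower, with medians of -0.4875 to -0.2981 (all), 0.09269 to 0.2635 (type I type) and -0.7371 to -0.4565 (interferon gamma type). For LDHi in IL-21, 0 to 3 members were higher and 16 to 24 lower, with medians of -0.5553 to -0.2685 (all), -0.3446 to -0.1405 (type I type) and -1.236 to -0.7859 (interferon gamma type). Between the groups with LDHi, 9 to 14 members were higher and 4 to 12 lower, with medians of 0.007567 to 0.07051 (all), 0.2175 to 0.4179 (type I type) and -0.5339 to -0.4629 (interferon gamma type). For the interaction, 3 to 10 members were higher and 5 to 19 lower, with medians of -0.4584 to -0.2675 (all), -0.4047 to -0.2453 (type I type) and -0.7542 to -0.2664 (interferon gamma type).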

Other observations

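Genes that signal to or from the interferon pathway were followed in lists of 8 genes each. Of the JAK, STAT and IRF genes outside the members, 1 was called higher and 4 lower in IL-2 than without cytokine, where 25.6% and 24.8% of all genes were. With LDHi in IL-2, 2 rose and 2 fell, near the shares of all genes (17.8% and 21.6%), and with LDHi in IL-21 none rose and 4 fell (11.1% and 20.3% of all genes). Irf8, a factor of effector CD8+ T cells and of myeloid cells, stood at 7.27 and 4.87 RPKM without cytokine, 26.4 and 28.8 in IL-2, 7.86 and 8.25 in IL-2 + LDHi, 8.24 and 6.34 in IL-21, and 1.46 and 0.684 in IL-21 + LDHi. It was highest in both IL-2 libraries and lowest in both IL-21 + LDHi libraries, with log2 fold changes of 2.17 ± 0.29 for IL-2 against no cytokine, -1.82 ± 0.28 for LDHi in IL-2 and -2.79 ± 0.31 for LDHi in IL-21 (edgeR). Jak1, a kinase bound to both interferon receptors and to the receptors of IL-2 and IL-21, was measured at 247 and 211.7 RPKM without cytokine, 114 and 115 in IL-2, 189 and 182 in IL-2 + LDHi, 214.7 and 155 in IL-21, and 154 and 155 in IL-21 + LDHi. It was lowest in both IL-2 libraries, fell with IL-2 (-1.02 ± 0.12) and rose with LDHi in IL-2 (0.65 ± 0.12), and its change with LDHi in IL-21 did not pass the test (-0.28 ± 0.12).

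Among the genes of sensing upstream of interferon, 2 were called higher and 3 lower in IL-2 than without cytokine, beside 25.6% and 24.8% of all genes. With LDHi in IL-2, 4 rose and 1 fell (17.8% and 21.6% of all genes), and with LDHi in IL-21 none was called, beside 31.4% of all genes. Ikbke, a kinase that activates Irf3 and Irf7, had 63.7 and 51.7 RPKM without cytokine, 18.2 and 19.4 in IL-2, 42.5 and 40.6 in IL-2 + LDHi, 42.7 and 26.8 in IL-21, and 36.5 and 41.0 in IL-21 + LDHi. It fell with IL-2 (-1.64 ± 0.15) and rose with LDHi in IL-2 (1.11 ± 0.15). Cxcl10, a chemokine that interferon gamma induces, reached 2.65 and 2.86 RPKM without cytokine, 1.30 and 1.55 in IL-2, 1.04 and 1.36 in IL-2 + LDHi, 0.770 and 0.942 in IL-21, and 0.0371 and 0.0725 in IL-21 + LDHi. Both IL-21 + LDHi libraries lay below all others, at -3.96 ± 0.43 with LDHi in IL-21, and the change with LDHi in IL-2 did not pass the test (-0.29 ± 0.30). Myeloid cells also express Irf8 and Cxcl10, and the macrophage and monocyte marker sum was 57.7 to 63.7 RPKM in IL-21 and 7.91 to 10.7 in IL-21 + LDHi; its part in these values was not tested.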
